A study of Mus musculus with 96 samples.

Results

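The 8 libraries described here hold nuclear RNA of E23-deleted VIP interneurons from the mouse visual cortex, 4 from mice that saw light and 4 from mice kept in the dark. They were chosen by genotype, virus, light condition and sorted fraction as the labels give them, and are 8 of the 96 libraries of a study on enhancers of Igf1, the gene of insulin-like growth factor 1. The mice carried Igf1-E23 fl/fl and VIP flp/wt, so that Cre can remove a target named E23 at Igf1 and Flp is made in cells that express Vip. All were injected in the visual cortex, at 55 to 60 days of age, with AAV-Syn1-fDIO-mScarlet-KASH-2a-Cre, went into dark housing 3 days later for 10 to 12 days, and were either taken in the dark or given 1 h of light. The comparison groups are 8 E23 dCre libraries, which got the same virus with dCre in place of Cre, and the VIP libraries of lines E1 and E123 under Cre. Total nuclei of the E23 Cre mice were sorted and sequenced as well.

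The design limits what the groups can model. The virus needs Flp (fDIO) and uses the Syn1 promoter, so Cre is made only in infected VIP cells around the injection. Gene counts do not cover the deleted element, and the deletion itself was not measured. Each library came from 50 to 100 sorted nuclei and 17 cycles of PCR. The labels call the replicates biological but do not tie them to animals, so p-values measure the spread between libraries. In the tests of all genes, this spread was estimated from all 48 VIP libraries, or from all 96 libraries for the comparison with total nuclei. In such pools, fewer cells of a type and less RNA per cell cannot be told apart.

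VIP interneurons are cortical inhibitory cells that mostly contact other inhibitory cells, and they are known as a source of IGF1 in the visual cortex. Light after darkness drives activity in visual cortex, and active neurons switch on immediate-early genes within minutes. The products are transcription factors of the FOS, EGR and NR4A families, which then act on later effector genes such as those of secreted peptides and growth factors.

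The light libraries held 1559883 to 6687289 counts and 17805 to 19847 detected genes, and the dark libraries 3146234 to 8497444 counts and 16303 to 20555 genes. The labelled cell type was borne out by its markers: Vip was counted at 2153 to 13090 CPM (counts divided by library size, on the usual scale) in the 8 libraries. The summed level of the 14 VIP markers was 23890 to 33050 CPM in light and 20680 to 35540 CPM in the dark. Female and male mice were in both groups, in the same numbers. One library stood apart. Dark replicate 2 held 732.7 CPM of 11 endothelial and mural markers in sum, against 8.381 to 47.77 CPM in the other dark libraries and 27.94 to 66.77 CPM in the light libraries.

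The sequences shown first belong to the genes that passed the test. Nr4a1, Mir670hg and Fosl2 are the genes whose light response was called, and the windows run from 250 bases before to 50 after a RefSeq transcript start (GRCm38.p6). Capitals in the Nr4a1 window mark TGACG, which is printed as its reverse complement CGTCA, and GCGGGGGCG, printed as its reverse complement CGCCCCCGC. Capitals in the Mir670hg window mark TGACTCA, and those in the Fosl2 window mark GCGGGGGCG. The Nr4a1 window lies at chr15:101266596-101266895 on the plus strand, that of Mir670hg at chr2:94265054-94265353 on the minus strand, and that of Fosl2 at chr5:32136222-32136521 on the plus strand.
Nr4a1: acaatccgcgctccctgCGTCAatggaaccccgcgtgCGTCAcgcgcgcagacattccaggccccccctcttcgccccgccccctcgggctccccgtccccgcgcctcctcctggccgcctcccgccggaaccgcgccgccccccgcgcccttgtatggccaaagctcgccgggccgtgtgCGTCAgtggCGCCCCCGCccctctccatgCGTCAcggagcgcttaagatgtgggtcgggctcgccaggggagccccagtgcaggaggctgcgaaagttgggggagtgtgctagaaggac
Mir670hg: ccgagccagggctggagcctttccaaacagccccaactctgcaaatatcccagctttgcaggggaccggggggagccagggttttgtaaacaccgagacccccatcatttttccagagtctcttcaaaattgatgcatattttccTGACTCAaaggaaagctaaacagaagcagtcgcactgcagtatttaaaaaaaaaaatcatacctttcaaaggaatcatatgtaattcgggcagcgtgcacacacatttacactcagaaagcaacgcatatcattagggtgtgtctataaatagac
Fosl2: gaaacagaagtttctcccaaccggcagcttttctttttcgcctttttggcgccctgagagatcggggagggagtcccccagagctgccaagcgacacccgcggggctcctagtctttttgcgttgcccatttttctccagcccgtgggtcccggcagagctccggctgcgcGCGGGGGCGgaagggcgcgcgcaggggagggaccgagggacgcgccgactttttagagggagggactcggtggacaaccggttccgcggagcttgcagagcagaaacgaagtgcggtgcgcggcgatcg

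The letters were searched on both strands of 32851 such windows. TGACG, the core that CREB factors bind, was in 20.8% of them, the full TGACGTCA in 1.79%, TGACTCA, the site of AP-1 (FOS and JUN dimers), in 5.2%, and GCGGGGGCG, a site of EGR factors, in 2.91%. TGACG is contained in TGACGTCA. The Nr4a1 window held 4 copies of TGACG and 1 of GCGGGGGCG, and the Mir670hg window, the first of 4 listed for that gene, held 1 TGACTCA. Of the 15 genes named for the smallest p among those higher in light, a window was read for 12, Egr1 not among them. TGACG was in 4 of the 12 (Fosb, Nr4a1, Per1 and Pfkfb3), TGACTCA in 2 (Drc1 and Mir670hg) and GCGGGGGCG in 3 (Fosb, Fosl2 and Nr4a1). TGACGTCA was in 0. On the lower side 12 of 15 had a window, with TGACG in 5 (Atr, Col24a1, Cyyr1, Ddx59 and Larp1b) and TGACGTCA in 1 (Col24a1). TGACTCA was in 0 of these and GCGGGGGCG in 1 (Flywch1). The counts are of genes, which can have more than 1 window, and the percentages are of windows. A match is a description of the letters and not a binding site.

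Of 20585 genes tested, 3 passed an adjusted p under 0.05 with the quasi-likelihood test of edgeR and Benjamini-Hochberg adjustment, all of them higher in light (0.0146% of the genes tested) and 0 lower. DESeq2, run as an alternative, called 30 higher and 13 lower, and all 3 genes were among them. At an unadjusted p under 0.05 there were 702 higher (3.41%) and 701 lower (3.41%). The 4 light libraries lay above all 4 dark libraries at 289 genes (1.4%), and below them at 236 (1.15%). Over all genes the median log2 fold change was -0.0208. A gene is written below as having risen only where it passed the adjusted test in edgeR. For all others the values are given.

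Nr4a1, which encodes an orphan nuclear receptor induced by neuronal activity, was at 182.4, 221.2, 307 and 134.8 CPM in the light libraries and at 17.78, 35.48, 19.7 and 31.43 CPM in the dark libraries. Every light library was well above every dark one. It rose by 3.02 ± 0.401 on the log2 scale (SE, n = 4 libraries a group, adjusted p = 1.41e-05 in edgeR with Benjamini-Hochberg adjustment). Mir670hg, a host transcript of microRNAs, was at 518, 487.5, 486.8 and 309.7 CPM in light and at 106.5, 82.26, 66.68 and 152.2 CPM in the dark. The groups did not overlap, although light replicate 4 was well below the other light libraries. It rose by 2.15 ± 0.377 (SE, edgeR, adjusted p = 0.00597), a call that was lost without dark replicate 2 (adjusted p = 0.0532) or dark replicate 3 (adjusted p = 0.142). Fosl2, which encodes the AP-1 subunit FRA2, was at 110.5, 84.9, 87.06 and 52.55 CPM in light and 10.26, 13.64, 5.772 and 14.67 CPM in the dark. The groups did not overlap here either, and Fosl2 rose by 2.92 ± 0.581 (SE, edgeR, adjusted p = 0.0473). Its call was held by a small margin: it was lost when any library other than light replicate 4 was left out, with edgeR adjusted p-values of 0.0733 to 0.352, with log2 fold changes of 2.71 to 3.07 in those fits. Nr4a1 passed without each library in turn.

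**Figure D1:**
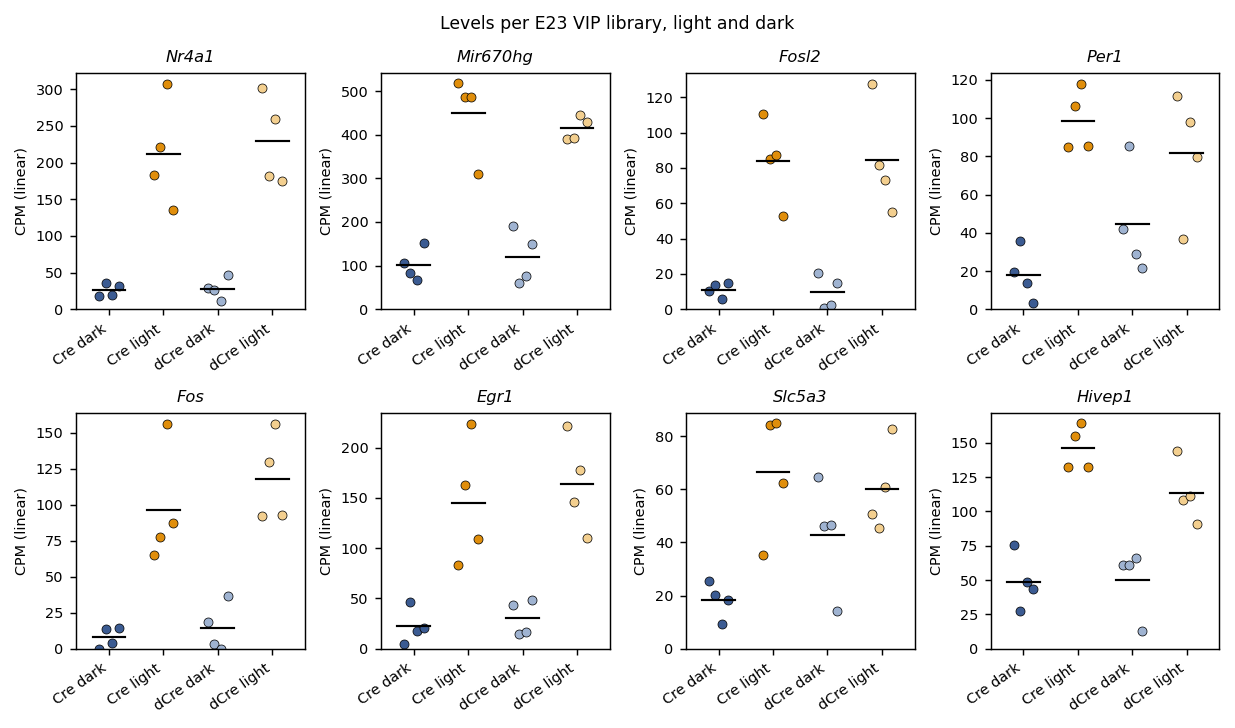
CPM on a linear axis for 8 genes in each E23 VIP library (points) with the group mean (bar), for Cre and dCre in dark and light, n = 4 libraries a group. The 4 Cre light libraries are above the 4 Cre dark libraries at every gene shown (for Nr4a1, means of 211.4 and 26.1 CPM).

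Some of the mature microRNAs within the 2 host transcripts described here are given as examples of the sequences that the hosts carry. Not all are printed: Mir129-2 also overlaps Mir670hg on the same strand. The microRNAs themselves were not measured. Capitals mark bases 2 to 8, the seed, and the sequences are from RefSeq (GRCm38.p6).
mmu-miR-670-5p: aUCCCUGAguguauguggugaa
mmu-miR-670-3p: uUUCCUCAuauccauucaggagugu
mmu-miR-132-3p: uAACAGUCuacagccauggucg
mmu-miR-212-3p: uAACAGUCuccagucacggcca
The last pair share the seed AACAGUC and lie in 1700016P03Rik, a transcript chosen for description after its values were seen. It was at 109.8, 82.82, 102.3 and 40.8 CPM in light and at 21.37, 15.56, 16.72 and 14.32 CPM in the dark, without overlap, and its log2 fold change of 2.31 ± 0.48 had an adjusted p of 0.053 in edgeR. In the E23 dCre libraries the same transcript passed the test, with a log2 fold change of 2.65.

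Per1, Slc5a3 and Hivep1 missed the threshold narrowly, each with an adjusted p of 0.053 in edgeR. Per1, a repressor of the circadian clock that CREB also induces, was at 84.78, 106.5, 117.7 and 85.32 CPM in light and 19.49, 35.59, 13.53 and 3.492 CPM in the dark. The groups did not overlap, and the log2 fold change was 2.42 ± 0.499. Slc5a3, a myo-inositol transporter, was at 35.13, 84.16, 85.16 and 62.44 CPM in light and 25.64, 20.03, 9.156 and 18.16 CPM in the dark. Its log2 fold change was 1.87 ± 0.394, but its locus overlaps Mrps6 and the predicted gene Gm49711 on the same strand, and their counts cannot be told apart without knowing how reads were assigned. Hivep1, a zinc finger transcription factor, was at 132.3, 155.4, 164.6 and 132.3 CPM in light and 75.74, 27.07, 48.37 and 43.65 CPM in the dark, a log2 fold change of 1.59 ± 0.339. Mrps6, a subunit of the mitochondrial ribosome, had a log2 fold change of 1.44 (adjusted p = 0.0614 in edgeR). With DESeq2, Per1, Slc5a3, Hivep1 and Mrps6 passed.

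The others among the 15 smallest p-values on the higher side did not pass in edgeR. DESeq2, the alternative, called Ntrk2, Egr1, Sik1, Pfkfb3, Gfod1, Fosb, Zfp119a and Drc1. Ntrk2, the receptor of brain-derived neurotrophic factor, was at 1583, 1279, 1344 and 1089 CPM in light and 926.6, 542.4, 632.7 and 532.5 CPM in the dark, with a log2 fold change of 1.01 ± 0.237 (adjusted p = 0.162 in edgeR). Its groups did not overlap although the change was small, since the libraries were close together. Sik1, a salt-inducible kinase that acts on the CREB coactivators, had a log2 fold change of 3.05, and Pfkfb3, a regulator of glycolysis, one of 3.10. Gfod1 had one of 1.63. Fosb, Zfp119a and Drc1 were at 0 counts in all 4 dark libraries, so their folds are bounds against a floor of 3 counts over the group. The bounds were at least 5.68, 5.75 and 4.67 on the log2 scale. In light Fosb was at 1.855 to 11.48 CPM, Zfp119a at 3.71 to 11.79 CPM and Drc1 at 0 to 6.843 CPM. Drc1 thus overlapped the dark libraries. Zfp119a was at 1.337 to 15.57 CPM in the dCre dark libraries, with a log2 fold change of 0.60 there.

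On the lower side no gene passed in edgeR, while the 13 that DESeq2 called included Tubgcp5, Ddx59, Nckap5l, Cyyr1, Esam and Ptprb. The smallest p belonged to Tubgcp5, a subunit of the gamma-tubulin complex, which was at 22.72, 22.52, 30.61 and 14.22 CPM in light and 42.23, 38.04, 82 and 122.2 CPM in the dark, a log2 fold change of -1.64 ± 0.396 (adjusted p = 0.197 in edgeR). Its groups did not overlap. Col24a1, a fibrillar collagen, was at 24.12, 26.37, 16.54 and 12.98 CPM in light and 57.27, 27.28, 78.82 and 78.57 CPM in the dark, a log2 fold change of -1.58. Flywch1, at 72.34 to 89.7 CPM in light and 127 to 161.7 CPM in the dark, had one of -0.80, Fam13a one of -1.67, Nckap5l one of -2.44, Adamts16 one of -2.65, Larp1b one of -1.20, Ptprf one of -1.19 and Atr one of -1.06. Ddx59, Cyyr1, Esam, Cavin4 and Ptprb were at 0 in all 4 light libraries, and their bounds against the floor of 3 counts over the group ran from -3.68 for Cavin4 to -6.82 for Esam. Ddx59 rests mainly on dark replicate 4, at 23.05 CPM there and 0.2131 to 1.194 CPM in the other dark libraries. Esam, Ptprb and Pltp rest on dark replicate 2, the library with the endothelial and mural markers: Esam was at 70.76 CPM there and at 0 to 4.958 CPM in the other dark libraries, Ptprb at 61.06 against 0 to 0.171 CPM, and Pltp at 261.5 against 0.8548 to 5.573 CPM. Without that library the log2 fold change of Pltp turned from -3.55 to 0.93.

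Among 31 rapid immediate-early genes tested of 32 listed, 2 rose (Nr4a1 and Fosl2), 17 were higher at an unadjusted p under 0.05 and 1 lower (3.41% of all genes in each direction). DESeq2 called 5 of the list higher (Fosb, Fosl2, Egr1, Nr4a1 and Per1) and 0 lower. All 4 light libraries lay above all 4 dark libraries at 13 of the 31 (1.4% of all genes), and below at 0. The median log2 fold change of the list was 2.35, against -0.0208 over all genes. Fos, the AP-1 subunit most used as a marker of activity, was at 65.11, 77.93, 156.4 and 87.17 CPM in light and at 0, 13.43, 4.18 and 13.97 CPM in the dark. Its groups did not overlap, with a log2 fold change of 3.63 ± 1.00 (adjusted p = 0.492 in edgeR). Egr1, a zinc finger transcription factor, was at 83.61, 162.7, 224.1 and 109.4 CPM in light and 4.103, 46.67, 17.32 and 20.6 CPM in the dark, a log2 fold change of 2.70. Arc, which acts at the synapse, had a log2 fold change of 3.15, the nuclear receptor Nr4a2 one of 3.44, Egr3 one of 2.49 and Egr4 one of 2.28, each without overlap. Some of these values moved with 1 library: Arc was at 2.31 without light replicate 3 and 5.18 without dark replicate 2, Egr4 at 3.44 without dark replicate 2, and Nr4a2 at 4.72 without dark replicate 4. Gadd45g, Ccn1 and Trib1 were the other members without overlap that were not among the 15, at 2.04, 4.89 and 3.02. Npas4, an activity-dependent factor largely restricted to neurons, was at 14.99, 26.67, 51.52 and 8.037 CPM in light and 1.539, 13.53, 4.18 and 0 CPM in the dark. Its light and dark libraries overlapped, and the log2 fold change was 2.35 ± 0.907, or 3.67 without dark replicate 2. Maff was the 1 member lower at the unadjusted level: it was at 0 in all light libraries and at 0 to 5.435 CPM in the dark, a bound of -3.95 on the log2 scale. With single libraries left out, 12 to 18 members were higher at the unadjusted level, with 12 without light replicate 3.

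**Figure D2:**
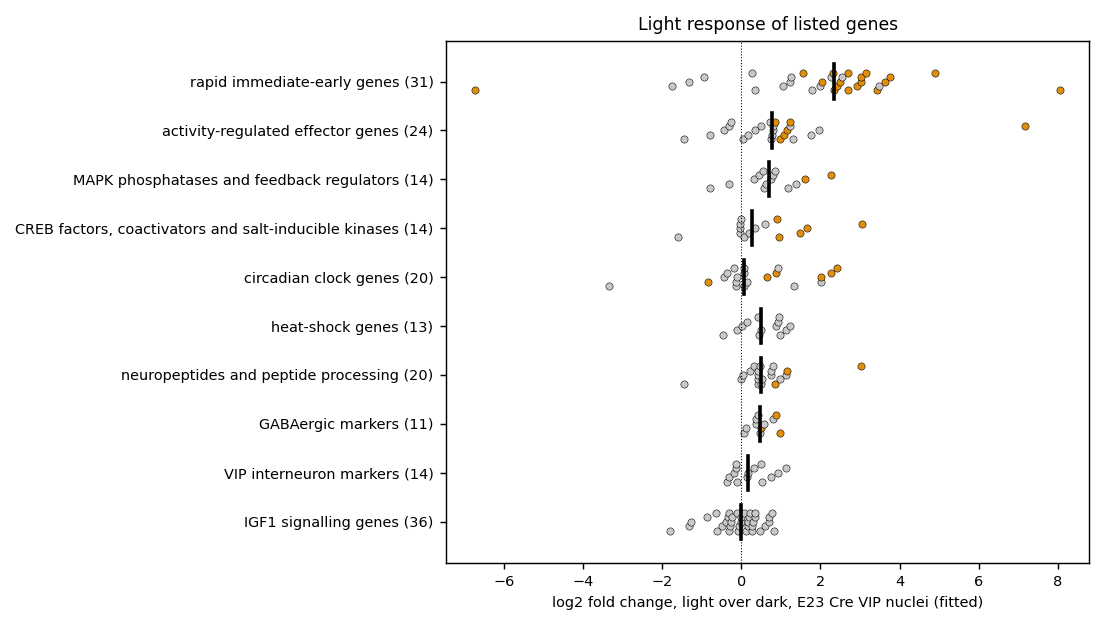
Log2 fold change of light over dark in E23 Cre VIP nuclei (x axis) for the tested members of 10 gene lists (rows, number tested in brackets), with members at an unadjusted p under 0.05 in orange and the list median as a bar. The rapid immediate-early genes have the highest median of the lists shown, 2.35, and the IGF1 signalling genes a median of 0.

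The later, effector genes were read in the same way. Of 24 tested, 0 passed in edgeR or DESeq2 and 6 were higher at an unadjusted p under 0.05 (3.41% of all genes). The median log2 fold change was 0.78. Pcsk1, the convertase that cuts prohormones, was at 251.8, 199.4, 330 and 231.2 CPM in light and 51.63, 77.79, 170.2 and 157.5 CPM in the dark, without overlap, a log2 fold change of 1.15. Vgf, a secreted neuropeptide precursor, was the other member without overlap (1.4% of all genes), with a log2 fold change of 0.86. Homer1, a postsynaptic scaffold, was at 208.7, 154.1, 168.8 and 86.56 CPM in light and 59.15, 58.4, 48.17 and 97.77 CPM in the dark, where 1 light library overlapped the dark ones. Of 14 MAPK phosphatases and feedback regulators tested, 0 passed in edgeR and 1 in DESeq2. At an unadjusted p under 0.05, 2 were higher (3.41% of all genes), and the median was 0.69. The counts at the unadjusted level moved with single libraries: they were 3 for the effector genes and 1 for the MAPK genes without dark replicate 1, and for the MAPK genes 1 without dark replicate 3 and 4 without dark replicate 4. Dusp6, which removes phosphate from ERK, was the MAPK member without overlap (1.4% of all genes). It was at 36.54, 30.22, 59.31 and 58.73 CPM in light and 2.564, 11.08, 9.355 and 15.36 CPM in the dark (log2 fold change of 2.27).

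Of 14 CREB factors, coactivators and salt-inducible kinases, 5 were higher at an unadjusted p under 0.05 (3.41% of all genes) and 0 passed in edgeR, with a median of 0.27. Crem, whose short forms repress CREB targets, had a log2 fold change of 1.65, Sik3 one of 0.91, and Pde10a, a phosphodiesterase that breaks down cyclic nucleotides, one of 1.48. Pde10a overlaps predicted genes on the other strand. By DESeq2, 2 members of this list passed. Of 20 circadian clock genes, 5 were higher and 1 lower at an unadjusted p under 0.05 (3.41% of all genes in each direction). The groups did not overlap for 5 higher (1.4% of all genes) and 1 lower (1.15%). Per1, on the higher side, was counted among the rapid immediate-early genes as well. Per2 was at 82.67, 73.04, 27.37 and 42.04 CPM in light and 33.85, 9.058, 1.99 and 10.48 CPM in the dark, a log2 fold change of 2.02, with 1 dark library inside the range of the light ones. Bhlhe40, a repressor of the clock, had one of 2.28. Tef, which activates clock output genes, was the member lower in light, at 79.63, 53.93, 32.89 and 56.88 CPM against 100.4, 111, 83.99 and 103.4 CPM in the dark. The median of the clock list was 0.07, since most members lay close to 0.

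Igf1 itself was at 798.6, 525.7, 567.8 and 593.5 CPM in the light libraries and at 353.6, 349.9, 455.2 and 806.3 CPM in the dark ones, means of 621.4 ± 121 and 491.2 ± 216 CPM (SD, n = 4). The groups overlapped because dark replicate 4 was the highest of the 8. The mean log2(CPM + 1) was 0.41 higher in light, and an exact two-sided permutation test gave p = 0.229, where the smallest p that 4 against 4 libraries allow is 0.0286. Without dark replicate 4 the difference was 0.68 with the smallest p that 4 against 3 allow, 0.0286 in the same exact permutation test. That library was the only dark one not below every light library. Leaving it out sets the groups apart, which fixes that p, so the fit gives no test. In edgeR the log2 fold change was 0.34 ± 0.231. Igf1 overlaps the antisense gene Igf1os, and Nextera XT libraries keep no strand that would tell the pair apart. In the E23 dCre libraries Igf1 was at 756.9 ± 122 CPM in light and 596.3 ± 73.8 CPM in the dark, also a log2 fold change of 0.34. The difference of the 2 responses was 0.00 ± 0.326 (SE, edgeR), which did not pass. Over the dCre libraries of all 3 lines the log2 fold change of Igf1 was 0.53 ± 0.136 (SE, edgeR, adjusted p = 0.0146). Over those of E23 and E123 it was 0.55 ± 0.163 (SE, edgeR, adjusted p = 0.127). Of the 36 IGF1 signalling genes, 0 passed in edgeR or DESeq2, 0 were higher and 0 lower at an unadjusted p under 0.05, and the median log2 fold change was 0.00.

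**Figure D3:**
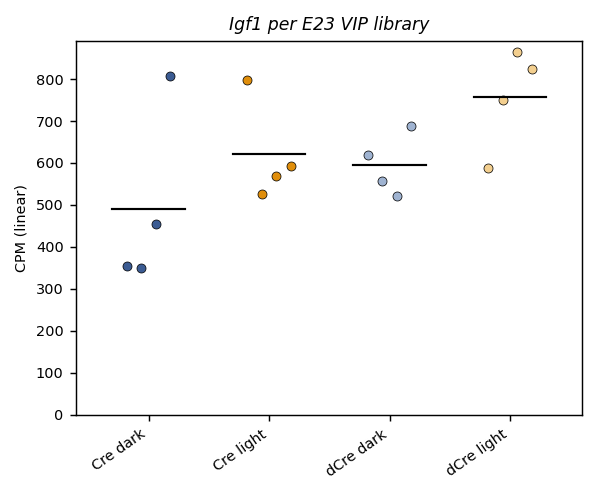
Igf1 in CPM on a linear axis in each E23 VIP library (points) with the group mean (bar), for Cre and dCre in dark and light, n = 4 libraries a group. The Cre dark libraries span 349.9 to 806.3 CPM, a range that holds all 4 Cre light libraries (525.7 to 798.6 CPM).

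Vip was at 4328, 7751, 13090 and 8118 CPM in light and 2153, 5084, 11740 and 4427 CPM in the dark, overlapping groups with a log2 fold change of 0.51 ± 0.44. Of 20 neuropeptide and peptide processing genes, 19 had a log2 fold change above 0, against 47% of all genes, with a median of 0.50. At an unadjusted p under 0.05, 3 were higher (3.41% of all genes): Pcsk1, Vgf and Cort. Pcsk1 and Vgf were counted in the effector list as well. Cort, cortistatin, was at 3.71 to 30.23 CPM in light and 0 to 5.328 CPM in the dark, with overlap. Its log2 fold change was 3.02, and 2.32 without light replicate 3 or 5.12 without dark replicate 2. Chgb, a granin of secretory vesicles, had one of 0.97. Of 11 GABAergic markers, 11 were above 0, with a median of 0.48. The 11 astrocyte markers had the same count and the same median, 11 above 0 and 0.48, and of 14 oligodendrocyte markers 11 were above 0 with a median of 0.97. The part of these cells in the shift was not tested. Dlx6os1, a long noncoding RNA of the Dlx locus, was at 811, 1049, 819.5 and 882.9 CPM in light and 364.2, 343.7, 520.5 and 587.7 CPM in the dark, and Dlx1, a transcription factor of interneurons, at 143.1, 162.8, 117.5 and 114.4 CPM against 75.74, 69.16, 74.84 and 71.93 CPM. The groups did not overlap for either gene, at log2 fold changes of 0.97 and 0.88. Gad2, which makes GABA, had one of 0.50 with overlap. Dlx6os1 overlaps Dlx6 on the other strand, and the pair cannot be told apart in Nextera XT libraries, which keep no strand. Of 13 heat-shock genes tested, 0 passed in edgeR or DESeq2 and 0 were at an unadjusted p under 0.05, with a median of 0.49. At that level 3 were higher without light replicate 1, 2 without dark replicate 3 and 1 without dark replicate 2.

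Genes of synapses and of excitability had list medians near 0, with members on both sides. Of 21 inhibitory synapse genes 0 were higher or lower at an unadjusted p under 0.05, and the median log2 fold change was 0.10, with members from -1.22 to 1.24. Of 26 excitatory synapse genes 1 was higher and 0 lower (3.41% of all genes in each direction). Their median was -0.01, with members from -1.24 to 1.24. Of 26 voltage-gated ion channels 0 were higher and 1 lower, with a median of -0.15, and 6 of the 26 had a log2 fold change above 0, against 47% of all genes. The channel genes summed to 12790 and 12720 CPM in dark replicates 1 and 4, and to 6696 and 7194 CPM in dark replicates 2 and 3. The level of long against short genes was 3.11 and 2.87 on the log2 scale in dark replicates 1 and 4. It was 1.85 and 1.92 in dark replicates 2 and 3, and 1.9 to 2.74 in light. The part of gene length in these lists was not tested. None of the synapse and channel genes passed in edgeR or DESeq2. Markers of the other interneuron classes likewise had no member that passed with either tool: the medians were 0.32 for 8 parvalbumin markers and 0.74 for 9 somatostatin markers, of which 1 was higher at the unadjusted level.

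Markers of other cells moved between libraries beside these results. The 14 oligodendrocyte markers summed to 226.5 to 2159 CPM in light and 248.6 to 1238 CPM in the dark. Of them 1, Mag, was higher at an unadjusted p under 0.05 (3.41% of all genes). The 11 astrocyte markers summed to 358.1 to 949.7 CPM in light and 294.6 to 635.8 CPM in the dark, and the 11 microglia markers to 119 to 274.9 CPM and 129.9 to 183.9 CPM. Light replicates 3 and 4 and dark replicate 2 were the highest for the oligodendrocyte and astrocyte markers. Of 9 endothelial and mural markers tested, 4 were lower at an unadjusted p under 0.05 (3.41% of all genes), with a median of -3.48. Cldn5 was at 154.1 CPM in dark replicate 2 and at 0 in the other dark libraries, and Flt1 at 94.31 CPM there. Excitatory neuron markers summed to 1652 CPM in the same library and to 569.9 to 659.8 CPM in the other dark ones. In the light libraries they summed to 616.5 to 1771 CPM, highest in light replicate 3. Much of this was Camk2a, at 1324 CPM in dark replicate 2 and 1492 CPM in light replicate 3. The part of these cells in the light comparison was not tested.

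**Figure D4:**
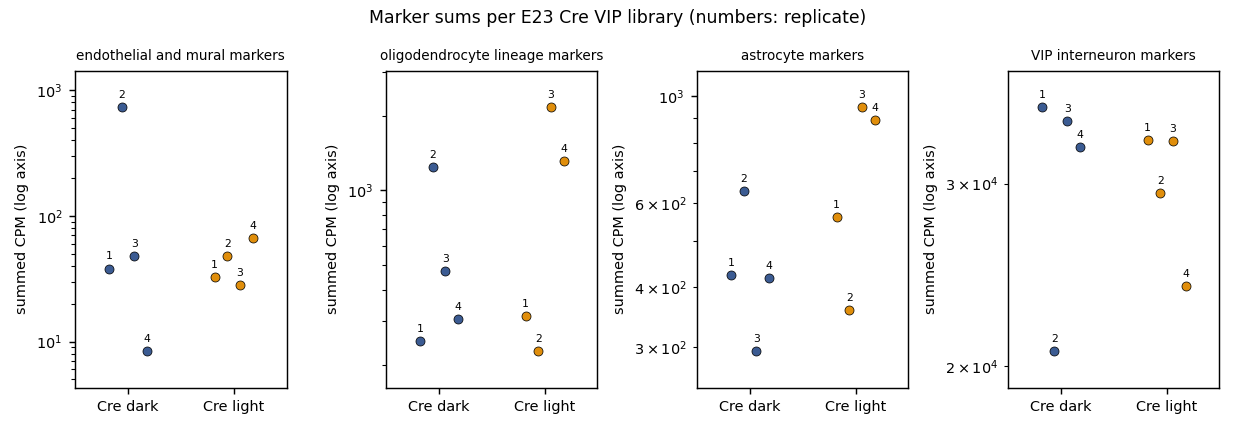
Summed CPM of 4 marker lists on log axes in the 4 dark and 4 light E23 Cre VIP libraries, numbered by replicate. Dark replicate 2 stands at 732.7 CPM of endothelial and mural markers, and the VIP marker sums of the 2 groups overlap.

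The response with Cre was compared with that of the E23 dCre libraries, which carry the same alleles and dCre, in common use an inactive Cre. No gene passed in the test of the difference in edgeR with Benjamini-Hochberg adjustment (0 of 20585, 0%); 1196 genes (5.81%) had an unadjusted p under 0.05, and DESeq2 called 19. The dCre libraries had 10 genes past the threshold in their own light comparison (0.0486%), among them the 3 called with Cre. Nr4a1 had a log2 fold change of 3.02 in both, a difference of 0.00 ± 0.541. Mir670hg was higher by 1.80 with dCre and by 2.15 with Cre, a difference of 0.35 ± 0.512, and Fosl2 by 3.11 and 2.92, a difference of -0.19 ± 0.776. Per1 was at 111.6, 36.94, 97.86 and 79.77 CPM in dCre light and 42.11, 85.48, 28.75 and 21.8 CPM in dCre dark, where the groups overlapped. Its difference of responses was 1.56 ± 0.675, with an adjusted p of 0.744 in edgeR. Col24a1 had log2 fold changes of -1.58 with Cre and 0.61 with dCre, a difference of -2.19 ± 0.631 (adjusted p = 0.61 in edgeR). For the heat-shock genes Hsph1 and Dnajb1, called in the dCre libraries at 2.24 and 3.36, the values with Cre were 0.88 and 1.14, and the differences of -1.36 and -2.22 had adjusted p-values of 0.822 and 0.726 in edgeR.

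**Figure D5:**
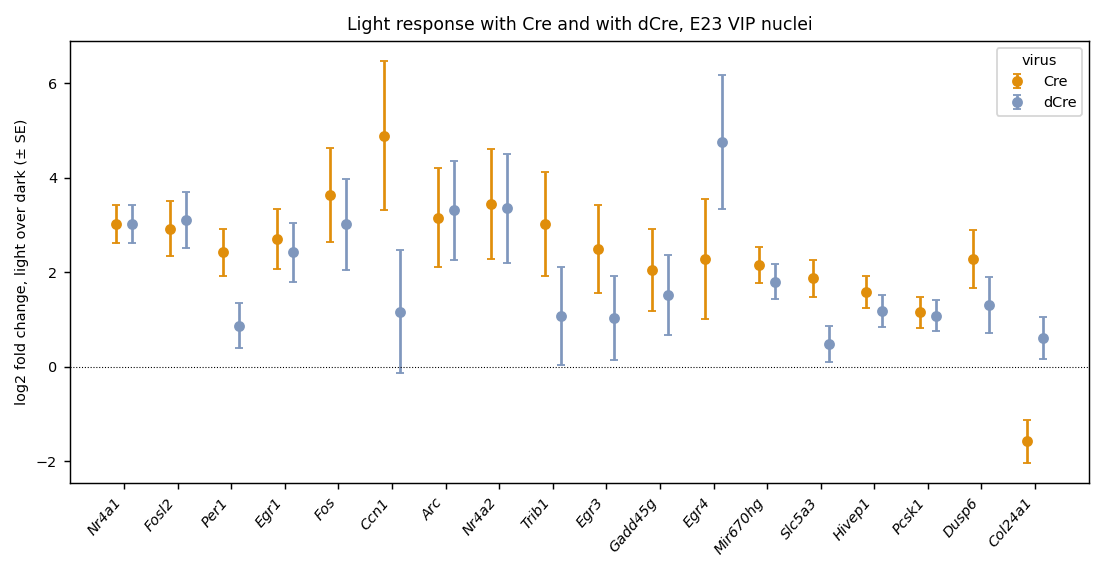
Log2 fold change of light over dark with SE in E23 VIP nuclei for 18 genes, with Cre (orange) and dCre (blue), n = 4 libraries a group. The pairs of error bars overlap for Nr4a1, Fosl2 and Mir670hg and are apart for Per1, Slc5a3, Ccn1 and Col24a1, where no difference passed the adjusted test.

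The mean light response of the dCre libraries of all 3 lines, E1, E23 and E123, gave 1290 called genes (6.27%). These libraries are not in the Cre contrast, but they share its fit and so its estimate of the spread. Of the 817 higher ones (3.97%), 648 had a log2 fold change above 0 with E23 Cre (79.3%, against 47% of all genes), with a median of 0.31 against 1.14 in the dCre libraries. At an unadjusted p under 0.05 in edgeR, 85 of them were higher with E23 Cre (3.41% of all genes). Of the 473 lower ones (2.3%), 373 were below 0 with E23 Cre (78.9%), with a median of -0.31, and 71 were lower at that level (3.41% of all genes). Without the E1 dCre libraries, the mean over E23 and E123 gave 92 called genes (0.447%). Of the 57 higher ones (0.277%), all 57 were above 0 with E23 Cre. Their median was 1.00 against 1.5 in those dCre libraries, and 33 had an unadjusted p under 0.05 (3.41% of all genes on the higher side). Of the 35 lower ones (0.17%), 29 were below 0 with E23 Cre (82.9%), with a median of -0.53, and 14 were lower at that level (3.41% of all genes). The genes were chosen by their size in the dCre libraries, so these medians give no test of a difference.

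Compared with the mean light response of the E1 Cre and E123 Cre libraries, 0 of 20585 genes passed in edgeR (0%) and 907 (4.41%) had an unadjusted p under 0.05. Nr4a1 had log2 fold changes of 2.55 in E1 Cre and 1.65 in E123 Cre, Fosl2 3.38 and 2.81, and Mir670hg 1.63 and 0.97. All 3 genes had a log2 fold change above 0 in each Cre line. Their differences from E23 Cre did not pass the threshold, with 0.92 for Nr4a1, -0.17 for Fosl2 and 0.85 for Mir670hg. Col24a1 had the smallest p on the lower side, with a difference of -2.39 ± 0.553 (adjusted p = 0.924 in edgeR). DESeq2 called 18 genes in this comparison.

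Between the VIP and total nuclei of the E23 Cre mice, 0 of 22926 genes passed in the test of the difference of responses (0%), with 1418 (6.19%) at an unadjusted p under 0.05 and 25 called by DESeq2. In total nuclei 10 genes passed (0.0436%), all higher, and they included Nr4a1 at 2.49, Pcsk1 at 2.49, Ntrk2 at 1.45 and Homer1 at 2.08. The same genes had log2 fold changes of 3.02, 1.15, 1.01 and 1.24 in VIP nuclei. Pcsk1 was the gene of these 4 with the largest gap between the fractions, a difference of -1.33 (unadjusted p = 0.0076, adjusted p = 0.615 in edgeR). Nrd1, another of the 10, had a larger gap, at 1.25 in total nuclei and -0.29 in VIP nuclei. Its difference of -1.53 had an unadjusted p of 8.58e-05 and an adjusted p of 0.615 in edgeR. The 10 genes were chosen for passing in total nuclei, which favours gaps in that direction. The rapid immediate-early list had a median of 2.30 in total nuclei and 2.35 in VIP nuclei.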

How the data were processed

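The deposited table holds raw read counts per gene and library, made by the authors and not normalized. The submitters' processing notes name cutadapt 1.18, STAR 2.5.3a, HOMER 4.9.1 and the mm10 build. The annotation release and the strand setting of the read counting are not given in the sources used here. The libraries were made with Nextera XT, per the labels, a kit that keeps no strand. Of 55335 gene identifiers, 55154 were matched to GENCODE M21 for symbols. The remaining 181, with 0.0225% of all counts, got no name. PCR copies were counted without molecular identifiers, so floors cover counting error only. No duplicates were found among 12 pairs of libraries within the groups.

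Genes were tested with the edgeR 4.0.16 quasi-likelihood F test in R 4.3.3 (TMM library sizes, filterByExpr, robust spread, 1 coefficient per group). The fit took in 48 VIP libraries (20585 genes), or all 96 libraries (22926 genes) for the comparison with total nuclei. Benjamini-Hochberg adjustment ran over all genes tested, with 0.05 as the threshold. Each SE was the size of the log2 fold change over the root of its F value. CPM are on TMM library sizes. Igf1 was also tested by exact permutation of log2(CPM + 1). DESeq2 1.42.0, other scalings, no filter, covariates, a replicate block and each library left out were alternatives.

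The members, gene lists and tests were chosen with earlier results of these data known. The genes named were chosen as follows: Fos, Igf1, Npas4 and Vip, the 15 smallest p-values in each direction, passing or non-overlapping members of 4 lists (rapid immediate-early, effector, MAPK feedback and heat-shock genes), up to 4 members with the smallest p of each other list, and the 5 smallest p-values in each direction of each test of a difference. Predicted or unnamed genes were counted but not named, except 1700016P03Rik and Gm49711. Not all genes that the rule allows are printed. In counts simulated for this light comparison (19465 genes tested), 3 of 100 genes altered 2-fold were called, and 21 of 100 altered 4-fold. At 20 CPM or more these were 3 of 30 and 21 of 36.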

Additional observations from a re-analysis of the deposited data

Results flagged for a closer look

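Of 92 groups of 4 libraries tested for an outlying library, 3 had one that lay far from the rest by Dixon's criterion, and chance flags about 1 in 20 such groups. Mir670hg was at 309.7 CPM in light replicate 4 and at 486.8 to 518 CPM in the other light libraries. Among the dark libraries, replicate 2 stood apart for the summed excitatory neuron markers, at 1652 CPM against 569.9 to 659.8 CPM. The light libraries had 616.5 to 1771 CPM of these markers. Dark replicate 2 also stood apart for the summed endothelial and mural markers, at 732.7 CPM against 8.381 to 47.77 CPM. The part of these markers in the light comparison was not tested.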

How the results depend on the processing

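The 3 genes called for light became 10 with total counts alone, 8 with RLE scaling, 49 without the filter on low counts (35 higher, 14 lower), 43 with DESeq2 (30 higher, 13 lower) and 25 with a covariate for the level of long against short genes in each library. They were 2 with sex as a covariate and 1 to 4 when each library was left out, with 1 without dark replicate 3. Nr4a1 passed under all 17 alternatives run. In a fit of only the libraries of the light comparison, the same 3 genes passed. Their edgeR adjusted p-values were then 0.00371 for Nr4a1, 0.023 for Mir670hg and 0.0167 for Fosl2. Differences between responses gave 0 genes in edgeR, but without the filter 8 (from dCre) and 5 (from the other Cre lines), and with DESeq2 19, 18 and 25 (from total nuclei). Leaving out single libraries gave 0 to 1 in each, the 1 arising without dark replicate 1 (dCre) or dark replicate 2 (other lines, total nuclei). The cause was not tested. The Igf1 difference ran from 0.28 to 0.68 with single libraries left out. Its exact permutation p was under 0.05 only without dark replicate 4, the highest library, where the groups no longer overlap by construction. The edgeR adjusted p of Igf1 was 0.702 or more under every alternative. Fosl2 was lost with sex as a covariate (edgeR adjusted p = 0.0519). Pltp turned to 0.17 with the replicate block. With single libraries left out it ran from -4.02 to 0.93 and Cldn5 from -10.61 to 3.44, both highest without dark replicate 2. Leaving out both replicates 4, an alternative chosen after seeing the data, gave 4 genes.

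Same-numbered light and dark libraries share a number and, at every number, the sex of the mouse. Of 4 such pairs, 1 had a correlation of deviations above 0.1, from -0.064 to 0.224. With the replicate block, 3 genes were called for light, of which 2 were among the 3 called without it. Fosl2 then had an edgeR adjusted p of 0.057 and Per1 passed at 0.0192. The block gave 0 genes in each test of a difference, and Igf1 had an exact sign-flip p of 0.375, where 0.125 is the smallest possible. Single genes were limited by a biological coefficient of variation of 0.815, and most 2-fold changes would be missed at this size.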
